A study of Allium sativum with 84 samples.

Results

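Among 84 garlic accessions, 7 formed a tight expression cluster in the enlarging bulb, and they came from distant places. They were both accessions collected in Greece, the accession from Israel, the accession whose label reads Eygpt (Egypt) and 3 of the 9 accessions from Xinjiang, China (replicates 3, 6 and 8). The study's supplement lists all 7 in its origin group, and they make up most of that group. A few accessions outside the cluster are also listed there. The study reports a large genomic divergence between its origin group and its cultivated groups. The members were chosen by their expression. In a principal component analysis of log2(FPKM + 1) over 36007 genes that reached 1 FPKM in 4 or more accessions, a member scored above 100 on the third component, which held 9.58% of the variance and was oriented so that the Eygpt accession was positive. FPKM is a level of sequenced fragments corrected for gene length and for the depth of the library. The members were compared with the 11 other accessions in which Asa2G00237.1, a DELLA gene, exceeded 3.5 FPKM, called here the other DELLA-high accessions. These were Canada replicates 1, 3, 4 and 5, Shanxi replicates 2 and 3, Xinjiang replicate 2, Gansu replicate 2, and the accessions labelled Xiangjiang, Amrica and Turkey. The remaining 66 accessions are called DELLA-low.

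By the study's account the accessions grew together on a Shandong farm, planted in autumn. The bulbs were sampled in the following spring during enlarging growth, with no treatment. By that account the groups shared growing site, season and tissue, and only the country or collection site differed in the labels. Conflicts between the labels and that account, given with the processing below, were not resolved. How far the bulbs of each accession had enlarged was not compared. Each accession was represented by 1 library made from pooled bulbs, so a replicate number, given here in accession order and not in the labels, names a different accession of a site and the spread between accessions includes their genetic differences. Gene IDs came without names in the deposited table, and the labelled tissue could not be checked against marker genes, and roles are given only for the genes that the study names.

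Garlic is propagated from cloves and seldom from seed, and its bulb forms when lateral buds swell into cloves. In onion and potato, photoperiod signals that act through FT-like proteins set when storage organs form. DELLA proteins restrain growth until gibberellin triggers their removal, and auxin signalling takes part in the control of bud outgrowth.

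The 7 members scored between 133.3 and 148.3 on the third component. The nearest accession outside was Turkey at 65.3, followed by Gansu replicate 3 at 63.7, so no accession lay near the threshold. The other DELLA-high accessions scored from -6.82 to 65.3. On the DELLA gene the lowest value inside the threshold was 3.70 FPKM in Xiangjiang, and the highest outside it was 3.04 FPKM in Shanxi replicate 6. All 7 members were among the 18 accessions above it, whereas their score drew on all 36007 genes. Because expression chose both groups, their differences in gene expression are given as a description without a test.

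**Figure D1:**
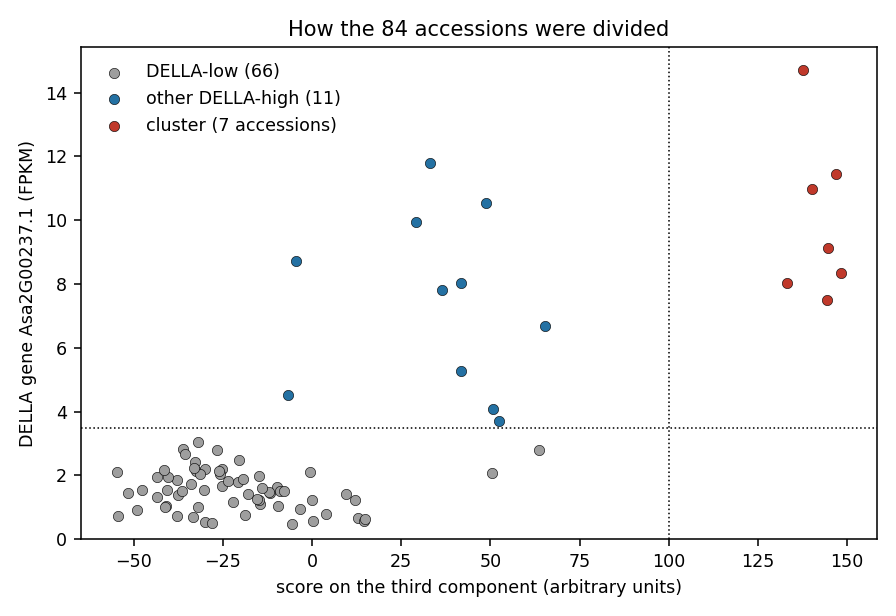
Score on the third principal component (horizontal axis, arbitrary units) against the level of the DELLA gene Asa2G00237.1 (vertical axis, FPKM) for the 84 accessions, each point 1 accession, with dotted lines at the thresholds of 100 and 3.5 FPKM. The 7 members lie between 133.3 and 148.3, to the right of every other accession, and the 11 other DELLA-high accessions spread from -6.82 to 65.3.

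The libraries differed in ways that the labels do not explain. Relative depth, read from the regular spacing of the lowest FPKM values and set to 1 in the first column, was 0.525 ± 0.0191 (SD, n = 7) in the members and 0.660 ± 0.210 (SD, n = 11) in the other DELLA-high accessions. The difference of -0.134 gave p = 0.0907 in an exact two-sided permutation test, and the members' range of 0.495 to 0.548 lay within the range of 0.5005 to 1.03 of the others except at its lower end. A member had 33077 to 34065 genes above 0 FPKM, against 31485 to 35379 in the other DELLA-high accessions. In the order of the deposited columns, 6 of the 7 members stood after column 23, whereas 9 of the 11 others stood in the first 23. This order is not a labelled batch, and counts among the libraries after column 23 alone are given below.

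As a set, the members were more alike among themselves than the other DELLA-high accessions were, as their choice by a score over these same values favours. The others were chosen by the DELLA gene alone, so this likeness is a description only. For each pair of accessions the genes at 2 FPKM or more in the first or second and listed at 0 in its partner were counted as on/off differences. The 21 pairs within the cluster had 70 to 465 such genes. The 77 pairs between a member and another DELLA-high accession had 2033 to 2896, with a median of 2477, so the ranges did not overlap. The 462 pairs between a member and a DELLA-low accession had 1851 to 3100, with a median of 2594. A high level of the DELLA gene thus did not set the other DELLA-high accessions near the members by this count. Pearson's r across genes on the log2 scale, given as a description since genes are not independent replicates, ran from 0.903 to 0.974 within the cluster and from 0.745 to 0.862 between the groups.

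The members that shared a site were not the closest by this count. The site is that of the labels, and for Greece replicate 2 a supplementary list of the study gives Xinjiang instead. The closest pair was Greece replicate 1 with Xinjiang replicate 8, at 70 on/off genes. The 2 Greece accessions differed by 161 genes and the 3 pairs among Xinjiang members by 161 to 349. The 12 pairs of a Xinjiang with a Greece, Israel or Eygpt member had 70 to 465, a range that included that of the pairs among the Xinjiang members. Xinjiang replicate 3 stood furthest out, with 240 to 465 in its 6 pairs, while the other 15 pairs had 70 to 290. The 18 pairs of a Xinjiang member with 1 of the 6 other Xinjiang accessions had 2263 to 2805. The label Xinjiang thus held both accessions within the cluster and accessions as far from it as those of other sites.

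Outside the cluster the nearest accession by this count was Jiangsu replicate 2, a DELLA-low accession, with 1851 to 2036 on/off genes to the members. Its library had the most genes above 0 FPKM of all 84, 36548, and a relative depth of 0.967 beside a median of 0.528. The count needs a listed 0, and how far it moves with depth was not tested. Turkey, nearest on the third component, had 2275 to 2817. The other DELLA-high accessions were a mixed set, and their 55 pairs had 86 to 2316 on/off genes with a median of 1807. Of these, 10 pairs were no further apart than members of the cluster. They linked Canada replicate 5, Xinjiang replicate 2, Xiangjiang, Shanxi replicate 3 and Gansu replicate 2, and separately Shanxi replicate 2, Amrica and Turkey. The remaining 45 pairs had 471 to 2316.

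**Figure D2:**
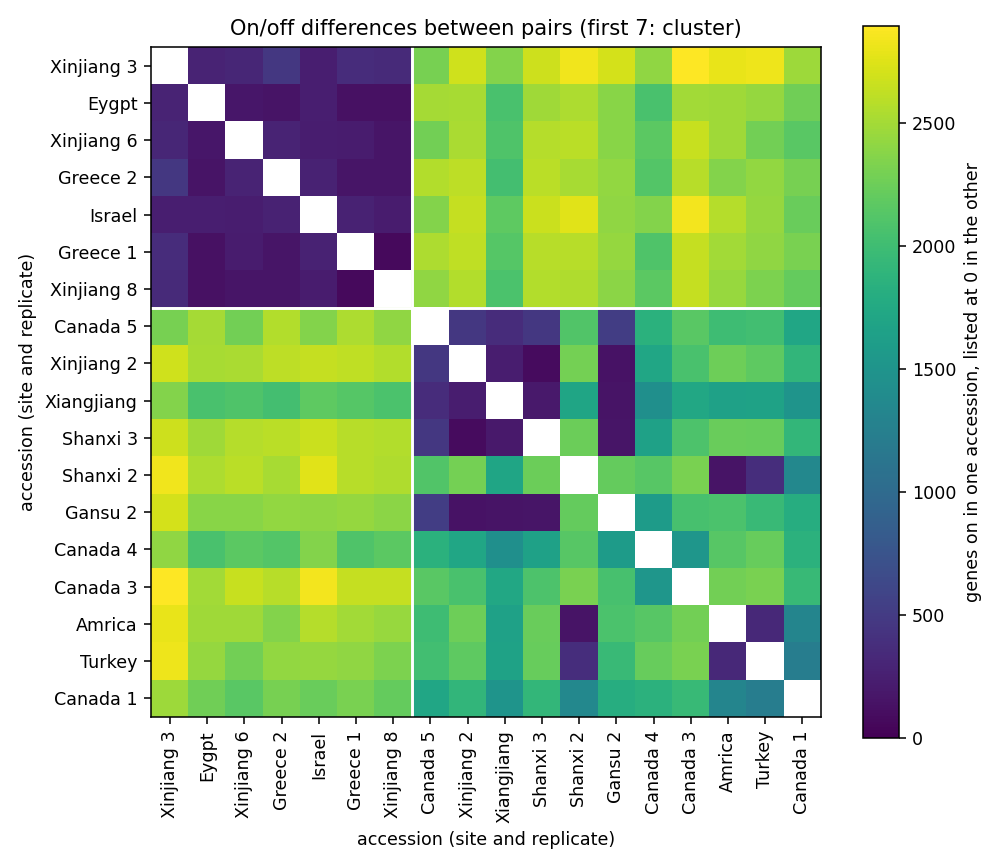
Number of genes at 2 FPKM or more in either accession of a pair and listed at 0 in its partner, for the 18 accessions with a high DELLA gene (both axes, site and replicate number), with the members first and white lines around them. The dark block of the members holds 70 to 465 genes per pair, the rows that join them to the 11 others hold 2033 to 2896, and smaller dark patches mark the 10 alike pairs among the others.

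Of 30867 genes that reached 1 FPKM in 4 or more of the 18 accessions, 1292 (4.19%) had every member above every other DELLA-high accession and a difference of means of at least 1 on the log2(FPKM + 1) scale, a 2-fold change. Lower in every member by the same rule were 756 genes (2.45%). Both counts follow from a choice of members on expression and are read as a description only. At a 4-fold difference 660 genes were higher and 449 lower. The median difference over all counted genes was 0.08 in log2.

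Part of these genes set the members apart from the whole collection. Of the 1292 higher genes, 528 (1.71% of the counted genes) were above all 77 non-members, and of the 756 lower genes, 374 (1.21%) were below all 77. These are shares of 40.9% and 49.5%. The median of the DELLA-low accessions was 0 FPKM for 598 of the higher genes and at least 1 FPKM for 734 of the lower ones. Of the higher genes, 240 were listed at 0 in all 11 other DELLA-high accessions, and of the lower genes, 307 were listed at 0 in all 7 members.

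The counts moved with the columns and accessions compared. Over the same 30867 genes, the 6 members after column 23 against all 55 non-members after column 23 gave 835 higher and 893 lower genes, of which 592 and 493 were among the 1292 and 756 of the full comparison. Against the 2 other DELLA-high accessions after column 23, Turkey and Canada replicate 1, the 6 members gave 4296 higher and 2278 lower genes. Against the 9 of the first 23 columns they gave 1619 and 1163, and there the group and the column block cannot be told apart. Both are subsets of the full comparison, in which genes with separate ranges stay separate, so they do not test the column order. These 3 comparisons were chosen after the data were seen.

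**Figure D3:**
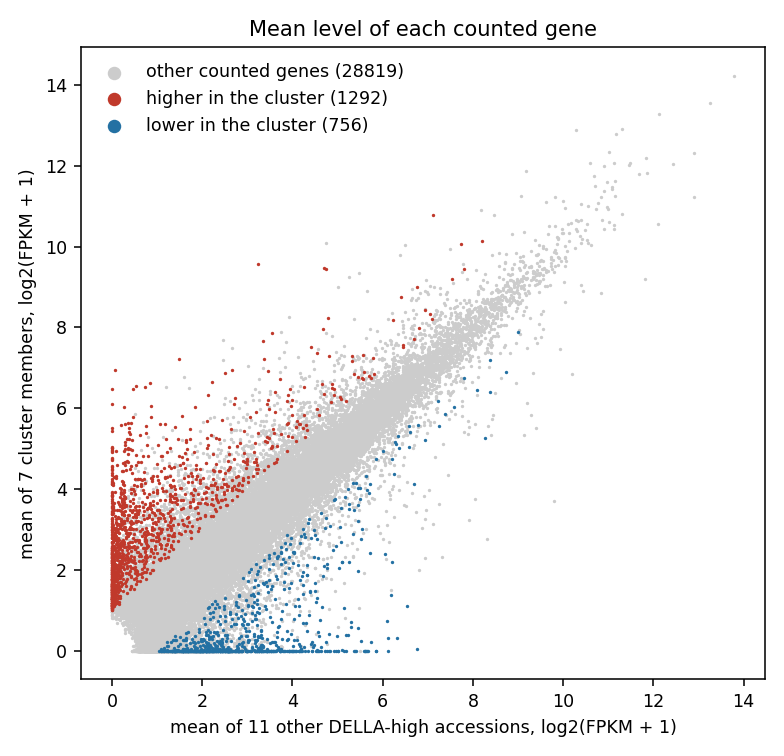
Mean log2(FPKM + 1) of the 7 members (vertical axis) against that of the 11 other DELLA-high accessions (horizontal axis), 1 point for each of the 30867 counted genes, red where every member was higher and blue where every member was lower by at least 2-fold. The 1292 red and 756 blue points include many on the axes, which are genes listed at 0 in all libraries of 1 group.

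The 8 genes with the largest upward differences were low in most other DELLA-high accessions, and some of them were on in DELLA-low accessions. Asa3G01671.1 ranged from 89.4 FPKM in Xinjiang replicate 6 to 150.6 in Xinjiang replicate 3, with a median of 125.7. It was listed at 0 in 8 of the 11 other DELLA-high accessions and reached at most 0.212 FPKM in them and 2.03 FPKM in the DELLA-low accessions. Its mean difference was 6.87 ± 0.12 in log2 (SE), the largest of all. All 7 members were thus far above all 77 others.

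Neighbouring IDs shared this pattern. Asa0G03482.1 lay between 57.7 and 113.8 FPKM in the members (median 90.1), was listed at 0 in all 11 other DELLA-high accessions and in 64 of the 66 DELLA-low ones, and reached at most 0.186 FPKM. Asa0G03483.1, the next ID, lay between 53.5 and 87.1 FPKM (median 67.1) and was listed at 0 in all 77 non-members. Genes with neighbouring IDs can overlap or be similar copies, and how reads shared between them were counted is not given in the sources used here.

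Asa0G02265.1 was the most abundant of the 8 genes with the largest upward differences. It lay between 470 and 2235 FPKM in the members (median 632), with Eygpt highest, and between 0.224 and 124 FPKM in the other DELLA-high accessions (median 5.35). The mean difference was 6.34 ± 0.68 in log2 (SE), and 4.51 among the libraries after column 23. In such differences, here and below, only Turkey and Canada replicate 1 stood for the others. It was not particular to the cluster, since the DELLA-low accessions reached 861 FPKM in Qinghai.

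Asa2G00107.1 and Asa2G01566.1 had the same distribution. The former lay between 59.6 and 123.35 FPKM and the latter between 70.01 and 120 FPKM in the members. Both were listed at 0 in 10 of the 11 other DELLA-high accessions, and Canada replicate 4 held 32.4 and 54.1 FPKM. Among the DELLA-low accessions each was listed at 0 in 41, with the highest at 116.95 and 137.5 FPKM. These transcripts were thus on in part of the DELLA-low accessions too.

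Asa4G02880.1 lay between 63.9 and 123.4 FPKM in the members (median 101.8). Among the others it was above 0 in Shanxi replicate 2 with 7.39 FPKM, Turkey with 6.58 and Amrica with 2.96, accessions that were alike in their on/off genes. The remaining 8 other DELLA-high accessions were listed at 0. Asa2G00240.1 lay between 29.99 and 173 FPKM (median 131.5) against 0.224 to 1.38 in the other DELLA-high accessions, with Xinjiang replicate 8 and Eygpt lowest among the members at 29.99 and 39.2 FPKM. A DELLA-low accession, Shandong replicate 3, held 80.6 FPKM.

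The largest downward differences were transcripts that nearly every other accession held. Asa4G02828.1 was listed at 0 in 5 members and reached 0.0750 FPKM, while the other DELLA-high accessions spread from 0.972 in Xinjiang replicate 2 to 5182 FPKM in Shanxi replicate 2 (median 138.4). The DELLA-low accessions had 0.164 to 1310 FPKM. The groups did not overlap, but the non-members alone varied by more than 3 orders of magnitude.

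Asa6G06850.1 was listed at 0 in all 7 members, with 30.9 to 147.6 FPKM in the other DELLA-high accessions (median 71.8) and 1.51 to 281 in the DELLA-low accessions. Asa5G05454.1 was also listed at 0 in all members, and no non-member fell below 14.4 FPKM. Asa8G03308.1 was listed at 0 in 5 members and reached 1.30 FPKM in Eygpt, against 20.6 to 169.9 FPKM. Asa7G04213.1 was at 0.941 FPKM or below in the members and at 12.7 FPKM or above in all 77 others.

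Asa2G01327.1 and Asa7G05694.1 were listed at 0 in the members and in 1 DELLA-low accession each, Guizhou replicate 3 and Ukraine. In the other DELLA-high accessions they lay at 20.7 to 119.5 and 29.1 to 168 FPKM. Their absence was thus shared by a DELLA-low accession in each case.

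**Figure D4:**
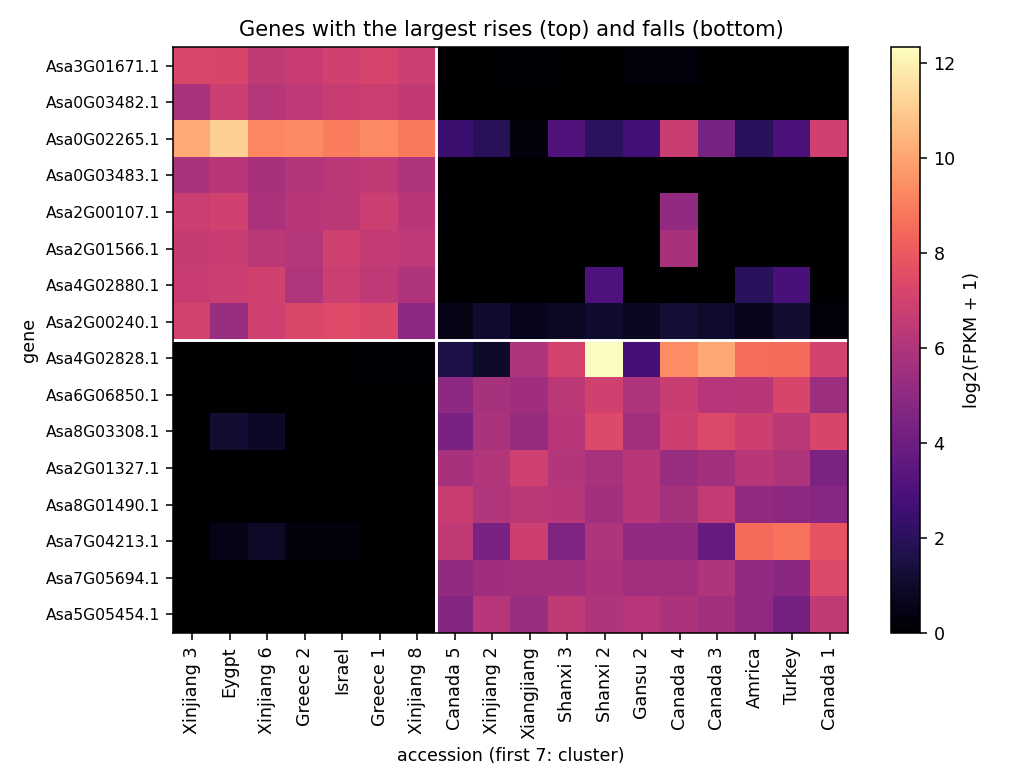
Level of the 8 genes with the largest upward (top rows) and the 8 with the largest downward differences (bottom rows), as log2(FPKM + 1) in colour, in each of the 18 accessions with a high DELLA gene (columns, members left of the white line). The upward genes are bright in all 7 members, Canada replicate 4 holds 32.4 and 54.1 FPKM of Asa2G00107.1 and Asa2G01566.1, and the downward genes are dark in all members and vary among the 11 others.

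Over all 57561 genes, 63 (0.109%) were at 1 FPKM or more in every member and listed at 0 in all 77 non-members. Their median level in the members was 4.65 FPKM. The 4 most abundant were Asa0G03483.1, described above, Asa0G05834.1 with 32.5 to 54.4 FPKM (median 42.6), Asa1G02823.1 with 23.6 to 41.9 FPKM (median 35.2) and Asa5G03337.1 with 24.1 to 36.9 FPKM (median 32.3). For each the highest member was less than double the lowest. The rule asked for presence in every member, and this spread was not set against that of other genes.

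The reverse pattern was counted by a looser rule. Listed at 0 in all 7 members and reaching 1 FPKM in no fewer than 70 of the 77 others were 371 genes (0.645%), and 83 of them reached 1 FPKM in all 77. Their median level in the non-members was 6.69 FPKM. The most abundant was Asa8G02778.1, with a median of 116.4 FPKM over the non-members. In the other DELLA-high accessions it was lower, at 0 to 113 FPKM (median 11.6) with 4 listed at 0, than in the DELLA-low accessions with a median of 151 FPKM. Asa7G05695.1 lay at 16.4 to 142 FPKM and Asa5G02810.1 at 15.8 to 109 FPKM in the other DELLA-high accessions. Asa7G05695.1 follows Asa7G05694.1 in the numbering, and both were listed at 0 in the members.

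Separating genes came in short runs along the numbering of the gene IDs. The next counted gene also separated the groups in the same direction for 11.1% of the 1292 higher genes (beside 4.19% of all counted genes) and for 15.1% of the 756 lower genes (beside 2.45%). These shares come without a test. By the chromosome number in the ID, 3.62% to 5.81% of the counted genes were higher and 1.75% to 3.64% lower. The highest shares of both belonged to IDs numbered 0 (134 and 84 of 2308 counted genes), and the lowest share of lower genes was on chromosome 2 (74 of 4230).

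The longest run of higher genes held 5, from Asa2G04611.1 to Asa2G04615.1. The last of them separated most clearly, with 16.8 to 22.7 FPKM in the members, at most 0.171 FPKM in the other DELLA-high accessions and 65 of 66 DELLA-low accessions listed at 0. Asa2G04611.1 lay at 9.38 to 15.99 FPKM in the members against 0 to 2.38, and the DELLA-low accessions reached 7.02 FPKM. The other 3 genes overlapped with the DELLA-low accessions, which reached 8.83 FPKM for Asa2G04612.1, 7.18 for Asa2G04613.1 and 8.62 for Asa2G04614.1, each above the lowest member.

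The longest run of lower genes, Asa8G01487.1 to Asa8G01491.1, also held 5, and all 5 were below all 77 non-members. Of these, 4 were listed at 0 in every member. In the other DELLA-high accessions they lay at 0.664 to 11.8 FPKM (Asa8G01487.1), 16.8 to 91.4 FPKM (Asa8G01489.1), 26.7 to 106 FPKM (Asa8G01490.1) and 22.5 to 80.6 FPKM (Asa8G01491.1). The fifth, Asa8G01488.1, was still expressed in the members at 2.21 to 3.84 FPKM, against 4.81 to 16.9 FPKM. The run was thus listed at 0 in the members except for this gene.

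The DELLA gene itself, a homolog of rice SLR1, helped to choose the other DELLA-high accessions. Asa2G00237.1 lay at 7.496 to 14.7 FPKM in the members (median 9.12) and at 3.70 to 11.8 FPKM in the other DELLA-high accessions (median 7.82), and the ranges overlapped. Of the 18 counted genes with IDs from Asa2G00227.1 to Asa2G00255.1 around it, a window chosen after the values were seen, 2 were higher in the members and none lower. They were Asa2G00240.1, above, and Asa2G00244.1 with 24.7 to 57.3 FPKM against 10.8 to 22.96. The DELLA-low accessions had 9.05 to 44.1 FPKM of Asa2G00244.1, so the members overlapped with them. Asa2G00234.1, in the same window, was above 0 in all members (1.44 to 5.998 FPKM) and in 8 of the other 11 accessions (up to 51.5 FPKM) and was listed at 0 in 65 of the 66 DELLA-low accessions.

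Of the 14 genes that the study names for bulb growth, 13 were counted. By the rule of non-overlapping ranges 0 of them were higher and 0 lower in the members, beside 4.19% and 2.45% of all counted genes. The median difference was 0.38 in log2 for the 3 counted gibberellin genes, -0.28 for the 5 photoperiod genes and -0.21 for the 5 genes of bud outgrowth and auxin, beside 0.08 over all genes. The ranges of these 13 genes thus overlapped between the groups. For 13 genes a count of 0 is near the shares of all counted genes, and it is not read as a result about this list.

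Among the photoperiod genes the FT-like gene differed most. Asa6G06199.1, whose relatives in other plants encode mobile signals for flowering and storage organ formation, had 24.9, 11.4 and 8.89 FPKM in Xinjiang replicates 3, 6 and 8. It had 14.6 and 15.7 FPKM in Greece replicates 1 and 2, 23.9 in Israel and 24.0 in Eygpt. The other DELLA-high accessions had 1.62 to 11.6 FPKM with a median of 3.82. All 7 members were above this median, 5 were above the highest of the 11, and Xinjiang replicates 6 and 8 lay within their range.

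The median of Asa6G06199.1 in the members, 15.7 FPKM, was 4.11 times that of the other DELLA-high accessions. The mean difference was 1.73 ± 0.31 in log2 (SE), and 1.58 among the libraries after column 23. The DELLA-low accessions had a median of 3.99 FPKM and reached 14.9 FPKM in Xinjiang replicate 7, and 4 members were above all 77 non-members. Dividing depth-corrected FPKM by the step that made all 84 libraries whole within 0.05 gave 64 to 176 reads in the members and 18 to 83 in the other DELLA-high accessions.

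The ELF4-like gene Asa2G00681.1, related to a component of the evening clock in Arabidopsis, lay at 10.3 to 32.1 FPKM in the members (median 14.6) and at 12.1 to 82.9 FPKM in the other DELLA-high accessions (median 31.5). Of the 7 members, 6 were below the latter median and 7 below the DELLA-low median of 39.1 FPKM. The ranges overlapped, and the mean difference was -0.71 ± 0.33 in log2 (SE).

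Other photoperiod genes overlapped widely. The CDF2 homolog Asa8G01471.1, of a family that represses flowering genes in Arabidopsis, had 4.34 to 21.9 FPKM in the members and 0.760 to 36.0 in the others, with a mean difference of -0.28 ± 0.43 in log2 (SE). The TGA4-like gene Asa2G04763.1, of a family of bZIP transcription factors, had 7.96 to 36.2 and 0.600 to 39.2 FPKM, with a difference of -0.01 ± 0.47. The second TGA4-like gene, Asa6G01159.1, was low, with 0 to 1.997 FPKM in the members and 0 to 6.198 in the others. Its difference of -0.56 ± 0.34 was 0.32 among the libraries after column 23. Only Turkey and Canada replicate 1 stood for the others there, at 0.0474 and 0.241 FPKM.

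Of the gibberellin genes, Asa6G01110.1, an ortholog of the potato tuber gene BEL5, had 92.4 to 211 FPKM in the members (median 129.2) and 53.1 to 138.9 in the other DELLA-high accessions (median 110), a difference of 0.38 ± 0.20 in log2 (SE). The GA 20-oxidase gene Asa0G05638.1, of an enzyme family commonly known for gibberellin synthesis, was the most abundant of the study-named genes. It had 1158.7 to 3461 FPKM in the members and 917 to 3774 in the others. Its difference of -0.01 ± 0.30 was 0.94 among the libraries after column 23. A second such gene, Asa4G02474.1, was too low to count and was listed at 0 in 5 of 7 members and 7 of 11 others.

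Among the genes of bud outgrowth and auxin, the AXR1-like gene Asa2G00503.1, whose Arabidopsis relative takes part in auxin signalling, had 28.4 to 41.1 FPKM in the members (median 36.1) and 32.9 to 89.6 FPKM in the other DELLA-high accessions (median 51.3). All 7 members were below that median and 3 below the lowest of the 11, and 6 were below the DELLA-low median of 40.9 FPKM. The mean difference was -0.60 ± 0.15 in log2 (SE). Within the libraries after column 23 it was -0.08, so the difference was not seen there, where only Turkey and Canada replicate 1 stood for the others.

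The remaining genes of this list showed no separation. The TB1-like gene Asa2G00245.1, of a family that represses bud outgrowth, had 0.874 to 3.27 FPKM in the members and 0 to 3.28 in the others. The YUCCA-like gene Asa2G02184.1, of a family of auxin synthesis enzymes, had 0.850 to 2.97 against 0.646 to 8.53 FPKM, and its difference of -0.26 ± 0.27 in log2 (SE) was 0.59 among the libraries after column 23. The TOPLESS-related gene Asa4G00255.1, of a family of co-repressors, had 3.17 to 7.03 against 2.25 to 29.3 FPKM, with a difference of -0.21 ± 0.30 that was -1.41 among those libraries. All members lay within the range of the other DELLA-high accessions for these genes.

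**Figure D5:**
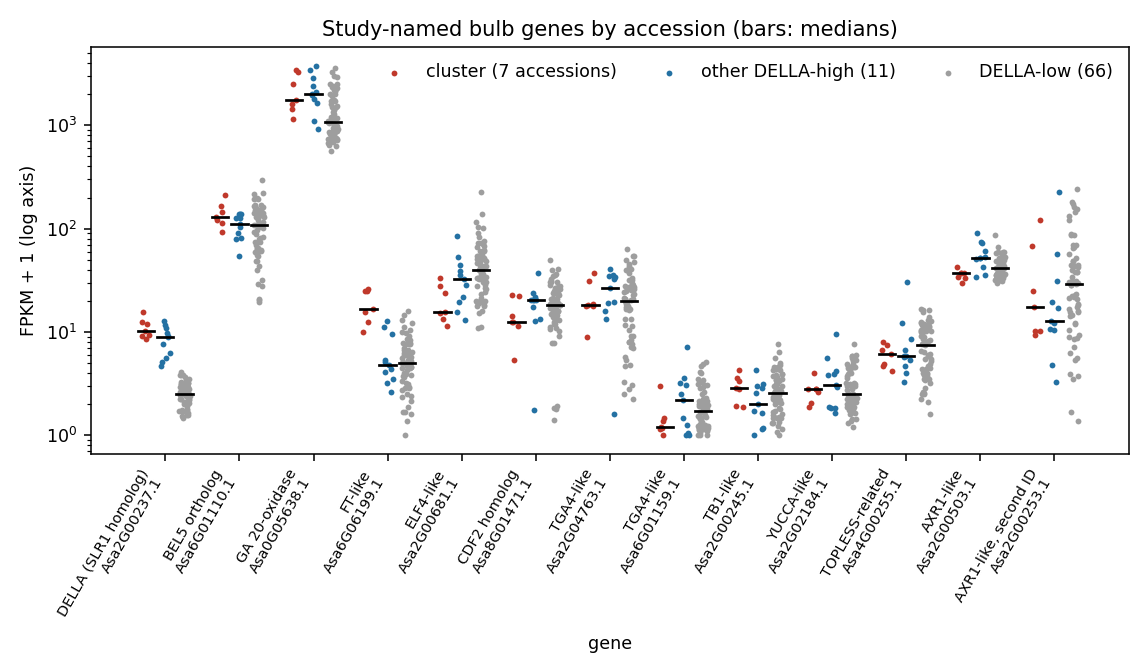
FPKM + 1 (vertical log axis) of the 13 counted study-named genes (horizontal axis) in the 7 members (red), the 11 other DELLA-high accessions (blue) and the 66 DELLA-low accessions (grey), each point 1 accession and each bar a median. The members' median of the FT-like gene Asa6G06199.1 is 15.7 FPKM against 3.82 and 3.99, and for every gene the red and blue points overlap.

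The most abundant transcripts of the members were Asa4G02790.1 (median 19766 FPKM), Asa3G04922.1 (11724) and Asa3G01406.1 (10017), followed by Asa1G00219.1, Asa5G05559.1 and Asa5G05561.1. The first 3 had medians of 14737, 10436 and 6416 FPKM in the other DELLA-high accessions, with overlapping ranges. Asa1G00219.1 had 4332 to 9890 FPKM in the members (median 8794) and 1024 to 6031 in the others (median 2762). Its members were mostly above, with overlap at Greece replicate 2.

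Asa5G05559.1 differed more, with 2826 to 17096 FPKM in the members (median 7517) and 166 to 3978 FPKM in the other DELLA-high accessions (median 1752). Its lowest value among all 77 non-members belonged to Shanxi replicate 2, and Amrica and Turkey were also low at 220 and 316 FPKM. Asa5G05561.1 had 2552 to 15792 FPKM (median 7269) against 1048 to 4426 (median 2194). For both genes Xinjiang replicate 3 was the lowest member, Eygpt the highest, and the groups overlapped.

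Collection site inside the cluster was a label that the choice of members did not use. That choice took accessions of like score over these same values, however, which favours few differences among them. An absence of calls is therefore not read as likeness of the sites. The 3 Xinjiang members were compared with the 4 members from Greece, Israel and Eygpt by limma on log2(FPKM + 1). Of 27153 genes tested, 0 (0.0% in either direction) passed an adjusted p of 0.05, with 1445 at an unadjusted p under 0.05 and a smallest adjusted p of 0.866. The same fit recovered 62.5% of simulated 4-fold changes and 1.9% of 2-fold changes, so 2-fold differences were mostly not detectable with this number of accessions. Without Greece replicate 2, whose site differs between the labels and the supplementary list, limma called 0 of 26618 genes, with 991 at an unadjusted p under 0.05. With the other DELLA-high accessions fitted as their own group, 2 genes were higher in the Xinjiang members and 1 lower, each at a limma adjusted p of 0.0463. Higher were Asa0G00829.1 (1.85 to 7.81 FPKM, other members 0.101 to 0.495) and Asa6G06831.1 (1.94 to 2.85, other members 0.374 to 1.14). Asa7G04426.1 was lower (0 in all 3, other members 0.379 to 1.404). These genes were low, and the spread of this fit came in part from the other DELLA-high accessions, a mixed set. With the 7 members alone the limma adjusted p of each was 0.895, so these calls are not read as a site difference. Over the settings tried the adjusted p of Asa0G00829.1 and Asa6G06831.1 ran from 0.0463 to 0.9999, and that of Asa7G04426.1 from 0.0463 to 0.971.

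Of the genes with the smallest p in each direction, Asa2G05447.1 had 68.5, 73.2 and 69.7 FPKM in Xinjiang replicates 3, 6 and 8, and 38.02 to 41.99 FPKM in the other 4 members. Its difference was 0.79 ± 0.11 in log2 (SE). Asa2G00513.1 had 8.06 ± 1.43 FPKM (SD, n = 3) in the Xinjiang members and 1.60 ± 0.631 (SD, n = 4) in the others, a difference of 1.82 ± 0.26. These ranges did not overlap, but the genes were picked from many, and the limma adjusted p was 0.866 for both.

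In the other direction, Asa3G03563.1 had 0.312 ± 0.139 FPKM (SD, n = 3) in the Xinjiang members and 3.97 ± 1.23 (SD, n = 4) in the others, a difference of -1.89 ± 0.26 in log2 (SE). Asa2G05755.1 was listed at 0 in all 3 Xinjiang members and had 0.850 to 2.11 FPKM in the others. The limma adjusted p was again 0.866 for both.

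Among the study-named genes inside the cluster, the DELLA gene Asa2G00237.1 had 7.97 ± 0.436 FPKM (SD, n = 3) in the Xinjiang members and 11.6 ± 2.32 (SD, n = 4) in the others. Its difference was -0.47 ± 0.19 in log2 (SE, limma adjusted p = 0.895). The lowest of Greece, Israel and Eygpt, 9.12 FPKM in Greece replicate 1, was above the highest Xinjiang member at 8.36 FPKM. Asa2G00253.1, the second ID printed for the AXR1-like gene, had 119.5, 66.8 and 24.1 FPKM in Xinjiang replicates 3, 6 and 8 and 8.31 to 16.6 FPKM in the other members, a difference of 2.37 ± 0.51 (SE, limma adjusted p = 0.895). The FT-like gene Asa6G06199.1 differed by -0.45 ± 0.36 (SE, limma adjusted p = 0.931). Neither the DELLA gene nor the others passed the test.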

How the data were processed

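Total RNA of enlarging bulbs was sequenced with 1 library per accession. The labels give 3 bulbs for every accession, whereas pooled plants and accessions are numbered differently in the study, which could not be settled. Every sample also carries the source name Chalingzipisuan, a variety that the study grew on another farm for a separate comparison, and this was not resolved. HISAT2 with default settings, version 2.2.1.0 by the submitters' processing notes, was the aligner, the garlic genome was the reference, and the authors deposited FPKM for 57561 genes. The counting program and the scaling total are not given in the sources used here. FPKM summed to 1095909 to 1339386 per library, so values were used as deposited and, in alternatives, rescaled.

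The members and gene lists were chosen with earlier results of these data known. Accessions were taken by the label of collection site, and the members by the component score. The cluster and the other DELLA-high accessions were described, without a test, by values, ranges and means of log2(FPKM + 1), a scale that understates differences of low genes. The contrast inside the cluster used two-sided tests in limma 3.58.1 under R 4.3.3, with an intensity trend and Benjamini-Hochberg adjustment, on genes that reached 1 FPKM in 3 or more of the 7 members, and it was tested on simulated data with 200 changed genes. Its p-values measure the spread among accessions. Relative depth was recovered as the commonest ratio between libraries among FPKM up to 0.5. The study reports mapped reads per accession, and these were not set against the recovered ratios. Depth was compared by an exact permutation test. Scripts ran under Python 3.11.15 with SciPy 1.17.1, Matplotlib 3.10.9, NumPy 2.4.6 and pandas 2.3.3. The study's supplement lists every member in its origin group, together with a few accessions outside the cluster such as Turkey. Groups here come from the labels alone, and this grouping was not used. Reads behind a gene were recovered as the smallest whole numbers, within 0.05, that fit its FPKM times relative depth in every library.

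The named genes were the 14 study-named genes, the 8 separating genes with the largest difference in each direction, the 4 most abundant genes present and the 4 absent in the members alone, the 2 genes of smallest p in each direction inside the cluster, the longest runs and the 6 most abundant genes. Exceptions are said in place. Alternatives were other pseudocounts, filters, scalings and thresholds, the study's untransformed scale, a fit of 3 groups, accessions left out and comparisons restricted by column block.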

Additional observations from a re-analysis of the deposited data

Results flagged for a closer look

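Among 46 measures examined over the 7 members (levels of named genes and library properties), 1 member stood far from the rest in 1 measure. Israel had 1.997 FPKM of the TGA4-like gene Asa6G01159.1 while the other 6 members had 0 to 0.451 FPKM, and on the log2(FPKM + 1) scale the gap to the nearest was 0.661 of the whole range. Chance alone flags about 1 in 20 such groups. This gene was low in all members, with a median of 4 recovered reads per library and 36 in Israel.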

How the results depend on the processing

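No paired analysis was possible because the labels carry no replicate numbers (those used here follow accession order) and each library is a different accession. The 7 members were the 7 highest on a component with unit variance, a pseudocount of 0.1, median-ratio scaling or no filter. With a 4-fold threshold the separating genes were 660 higher and 449 lower, and the longest lower run had 3 genes. Leaving out each accession gave 1288 to 1497 higher and 765 to 950 lower genes. Higher genes made up 63.1% of the separating genes as deposited, 58.4% after median-ratio scaling (1200 higher, 856 lower) and 57.1% after quantile normalization (1226 and 921), and the median difference of all genes was -0.01 in log2 after the former. The 6 members after column 23 gave 4296 higher and 2278 lower genes against 2 others and 835 higher against 55 non-members after column 23, and 1163 lower against 9 others of the first 23 columns. The first and last had fewer accessions to separate, and otherwise the cause was not tested. Genes present in members alone were 96 at a minimum of 0.5 FPKM. Median on/off differences within the cluster and between the groups were 577 and 3572 at 1 FPKM, and 75 and 1268 at 5 FPKM. Inside the cluster the fit of 3 groups called 2 higher and 1 lower gene (limma, smallest adjusted p = 0.0463). These were low genes, and the spread of that fit came in part from the other DELLA-high accessions. Every other setting called 0, with smallest limma adjusted p from 0.0558, without Xinjiang replicate 8, to 0.9999. The depth difference lay between -0.150 and -0.0975 with an accession left out (exact permutation p from 0.0518 to 0.160). Depth recovered only as a ratio and 1 library per accession limit what low genes can show.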
